A study of Mus musculus with 2 samples.

Results

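In the library of DP thymocytes labelled *Cxxc1*-deficient, most genes with a high value in the expression table had a lower value than in WT cells, and a small set did not. Of the 21041 genes in the table, 2472 had a mean of at least 100 over both libraries and are called well expressed here. Of these, 119 (4.81%) had a value in *Cxxc1*-deficient cells equal to or above that in WT cells. This share holds for the values as deposited: with the libraries brought to the same 75th percentile, an equal sum once the 100 genes of highest mean are set aside, or an equal sum, it was 14.3%, 22.4% and 28.6%. Removing 17 of them by name (*Notch1*, *Notch3*, *Il2ra*, *Mme*, *Setd1b* and names that start with one of 30 stems of large gene families) left the 102 members described below. The WT and *Cxxc1*-deficient values chose the members, so their direction and ratio are given as a description. The set holds transcription factors of the early response to stimulation such as *Fos*, *Jun* and *Myc*, the largest subunit of RNA polymerase II, the light chain of MHC class I, the mitochondrial carrier *Ucp2*, and chromatin regulators such as *Kmt2a*, *Arid1a*, *Mta3* and *Cxxc5*.

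RNA-seq was done on DP thymocytes, which carry both CD4 and CD8 and make up most of the thymus, with 1 library from WT and 1 from *Cxxc1*-deficient mice. According to the study, the deficient mice carried floxed *Cxxc1* alleles (*Cxxc1* fl/fl) and hCD2-Cre. In this transgene the human CD2 promoter drives Cre recombinase in lymphoid cells from an early thymocyte stage. The study calls its *Cxxc1* fl/fl mice WT, so by its account both groups carried the floxed alleles. By the study's account, removal of the gene was partial in earlier thymocytes and full only in DP cells. The genotype label of the deficient sample reads *Cxxc1*+/- and the other reads wild type, and the libraries were grouped by their titles. The mice were a few weeks old by the general methods, and how many were pooled for each library is not given in the sources used here. There is 1 library for each genotype, so no difference can be set against a replicate spread, no p-value is given, and every ratio compares 2 libraries rather than 2 genotypes. In such bulk samples, fewer cells of a type and less RNA per cell cannot be told apart.

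CXXC1, also called CFP1, binds DNA with unmethylated CpG dinucleotides through its zinc finger CXXC domain and is a subunit of the SETD1 complexes, which trimethylate lysine 4 of histone H3 at active promoters. Promoters rich in CpG are the sites best known for it from other tissues, and they serve most genes that are active in many cell types. In DP thymocytes the study found only a small part of its binding sites at CpG islands, although its signal was enriched at island centres. DP thymocytes rearrange the T-cell receptor alpha chain, audition the receptor on self peptide and MHC, and either die or go on as single-positive cells. Their double-negative (DN) precursors depend on Notch signals and divide, whereas most DP cells rest.

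The values are normalized expression values rounded to whole numbers by the authors, in a unit that the sources used here do not name, and the read depth behind them is unknown. They sum to 1551994 in WT against 981677 in deficient cells, and the median gene had 36 in each library. The targeted gene, *Cxxc1*, had 91 in WT against 50 in deficient cells, a ratio of 0.549. That value is lower, as labelled, but it is above the median of all genes and less lowered than the typical well-expressed gene, so it does not by itself show loss of the gene. *Rag1*, a DP identity gene that cuts the receptor genes, had 20778 and 5058. Of the 22 genes of a DP-stage list 21 were well expressed, all of them lower in deficient cells. Of all well-expressed genes, 4.81% were not lower. The median log2 ratio of the 21 was -1.83, beside -1.08 over all well-expressed genes, and 18 were at least 2-fold lower. In deficient cells *Cd3d* (680 and 85), *Cd2* (305 and 70) and *Ptcra* (79 and 44) were under 100, while the others of the list were over 100. Of 20 Y-linked genes, WT cells had 0 with a value above 0 and deficient cells had 7, and *Xist*, transcribed from an inactive X chromosome, had 2419 and 1021, and the part of these differences in the members' values was not tested. Scaling the libraries to the same sum would multiply every value of the deficient library by 1.58, which would raise the set from 102 to 825 genes and remove none.

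The members together had a sum of 18821 in WT and 23022 in deficient cells. That is 1.21% of the sum of the WT library and 2.35% of the sum of the other. Their values ran from 39 to 1052 in WT, with 128 at the middle, and from 103 to 1403 in deficient cells, with 165.5 at the middle. The ratio of deficient to WT cells had a median of 1.15 over the members and 0.471 over all well-expressed genes. Most members lay close to equality. For 59 of the 102 the ratio was under 1.2, for 29 the values differed by less than 10, and for 3 they were equal. At the other end, 16 members were at least 1.5-fold higher, a size reached by 0.89% of all well-expressed genes, and 6 were at least 2-fold higher, a size reached by 0.485%. These counts rest on the deposited scale, and 67, 147 and 219 members were at least 1.5-fold higher under the 3 scalings named above. The plot of all well-expressed genes shows the members as a thin edge above a cloud centred near 2-fold lower.

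**Figure D1:**
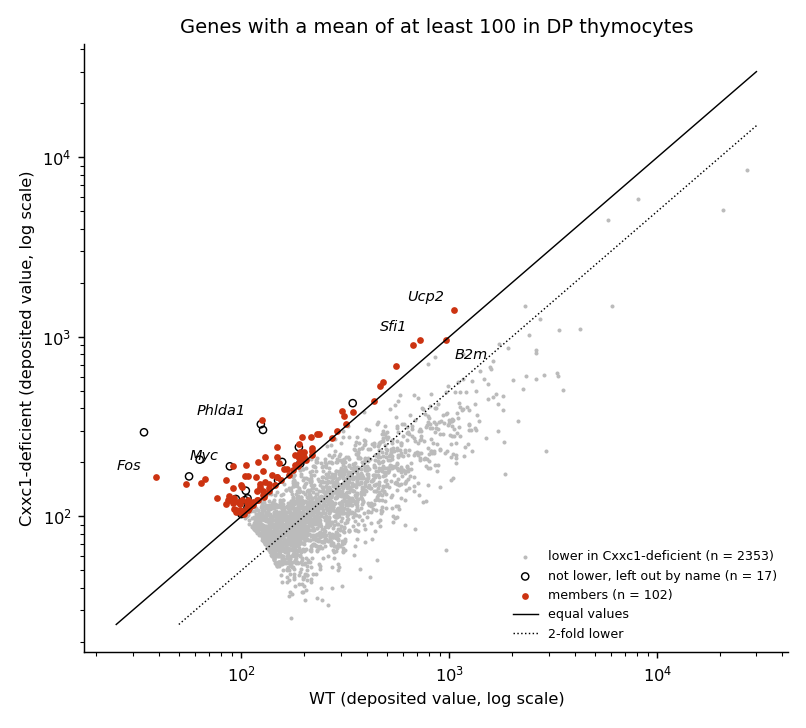
Each point is a gene with a mean of at least 100, placed by its deposited value in WT (x axis) and *Cxxc1*-deficient (y axis) DP thymocytes, both on log scales; red points are the 102 members, open circles the 17 genes left out by name and grey points the 2353 genes with a lower value in deficient cells. The solid line marks equal values and the dotted line a 2-fold lower value; most members lie just above the solid line, and *Fos* lies far above it.

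Members were found at every level. Among the 1087 genes with a mean of 100 to under 150, 63 (5.8%) did not have a lower value in deficient cells, and 54 of these were members. The share was 39 of 811 (4.81%) at a mean of 150 to under 250, 11 of 410 (2.68%) at 250 to under 500, 5 of 125 (4%) at 500 to under 1000, and 1 of 39 (2.56%) at 1000 or more. Over the same levels the middle log2 ratio went from -0.95 through -1.08, -1.29 and -1.56 to -1.81, so the typical gene was lower by more at higher levels. The single member of the top level was *Ucp2*.

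Some members owe their place to the edges of the rule. Just inside the limit on the mean were *Brpf3* with 94 in WT and 106 in deficient cells, *Gltscr1* with 84 and 117, and *Pura* with 76 and 126. Just outside it were *Man2a2* with 88 and 111, *Lnx2* with 92 and 106, and *Ganc* with 95 and 100. On the side of the ratio, *Cers6* (273 in both), *Mknk1* (108 in both) and *Trappc12* (103 in both) were equal, and the genes nearest below equality were *Efcab14* with 134 and 133, *Dpp4* with 129 and 127, and *Tnfaip3* with 389 and 381. In all, 59 genes with a mean from 80 to under 100 otherwise met the rule.

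Since CXXC1 binds CpG, the CpG content of the members' promoters was described, a measure that the rule did not use. It does not give the binding of CXXC1 in these cells. Below are the 250 bases before the start of 6 members, from RefSeq on GRCm38.p6 and on the strand of the gene, 5′ to 3′, with each CpG in capitals. They were chosen after their values were seen, to show CpG-rich and CpG-poor promoters among members of high value or high ratio: *Fos* (chr12:85473640-85473889, plus strand), *Jun* (chr4:95052223-95052472, minus strand), *Srrm2* (chr17:23802937-23803186, plus strand), *Kmt2a* (chr9:44881290-44881539, minus strand), *B2m* (chr2:122147437-122147686, plus strand) and *Lgals9* (chr11:78984925-78985174, minus strand).
Fos: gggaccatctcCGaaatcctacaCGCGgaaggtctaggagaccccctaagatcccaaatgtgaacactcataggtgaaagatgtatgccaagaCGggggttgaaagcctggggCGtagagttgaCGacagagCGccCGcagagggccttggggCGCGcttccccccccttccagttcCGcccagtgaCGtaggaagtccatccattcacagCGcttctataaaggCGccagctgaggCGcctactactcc
Jun: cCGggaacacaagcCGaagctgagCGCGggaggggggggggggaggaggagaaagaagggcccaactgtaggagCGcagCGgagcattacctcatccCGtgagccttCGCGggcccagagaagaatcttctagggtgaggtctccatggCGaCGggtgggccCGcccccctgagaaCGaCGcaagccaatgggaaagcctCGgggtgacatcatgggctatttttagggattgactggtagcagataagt
Srrm2: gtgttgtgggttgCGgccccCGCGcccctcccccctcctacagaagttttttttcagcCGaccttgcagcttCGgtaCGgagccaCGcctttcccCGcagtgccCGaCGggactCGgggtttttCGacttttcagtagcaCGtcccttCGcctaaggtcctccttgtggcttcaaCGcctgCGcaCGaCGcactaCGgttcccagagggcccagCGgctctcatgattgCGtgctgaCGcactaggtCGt
Kmt2a: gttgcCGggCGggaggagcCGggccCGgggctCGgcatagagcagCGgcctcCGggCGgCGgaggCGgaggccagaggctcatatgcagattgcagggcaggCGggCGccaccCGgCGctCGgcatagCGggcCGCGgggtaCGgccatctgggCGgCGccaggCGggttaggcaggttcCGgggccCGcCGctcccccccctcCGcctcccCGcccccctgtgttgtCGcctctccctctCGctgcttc
B2m: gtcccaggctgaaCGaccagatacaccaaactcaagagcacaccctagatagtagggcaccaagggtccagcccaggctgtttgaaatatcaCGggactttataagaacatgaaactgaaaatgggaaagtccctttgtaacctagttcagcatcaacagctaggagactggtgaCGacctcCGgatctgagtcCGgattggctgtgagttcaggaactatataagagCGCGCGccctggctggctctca
Lgals9: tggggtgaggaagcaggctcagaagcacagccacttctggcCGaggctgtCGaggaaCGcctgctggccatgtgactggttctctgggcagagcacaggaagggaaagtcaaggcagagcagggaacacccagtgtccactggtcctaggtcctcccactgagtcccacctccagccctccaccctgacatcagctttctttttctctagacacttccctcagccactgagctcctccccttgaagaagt
*Lgals9* has 3 CpG in this window, *B2m* 8, *Fos* 15, *Jun* 15, *Srrm2* 23 and *Kmt2a* 29. Relative to the number that their C and G content gives (observed/expected CpG, the count of CpG times the length over the product of C and G), this is 0.142 in *Lgals9*, 0.496 in *B2m*, 0.705 in *Fos*, 0.676 in *Jun*, 0.975 in *Srrm2* and 0.787 in *Kmt2a*. The windows used for the counts below differ. There *B2m* had 0.682 and *Jun* 0.594, so both change sides at the limit of 0.6 used there. The set thus holds both CpG-poor and CpG-rich promoters. The letters TATAAA stand in the window of *Fos* on the strand shown, and in that of *B2m* on the other strand.

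For the count over all genes, windows from 250 bases before to 50 after the start shared by most transcripts of a gene were read from NCBIM37, the build of mm9, with GENCODE vM1. Windows were found for 101 of the 102 members and for 2459 of the 2472 well-expressed genes. Here and below, the genes set beside the members include the names and stems that the rule leaves out of the members. The part of these names in the shares was not tested. The median observed/expected CpG was 0.701 in the members and 0.822 in all well-expressed genes. It was at least 0.6, a common limit for CpG islands, in 66 members (65.3%) and in 78% of all well-expressed genes, and it was under 0.4 in 24 members (23.8%) and in 13.1% of all. In the 158 genes at least 4-fold lower in deficient cells, 72.2% reached 0.6. The share was 80.8% for ratios over 0.25 and up to 0.5, 77.6% for ratios over 0.5 and up to 0.75, and 72.8% for ratios over 0.75 and under 1, so both ends of the range had a lower share than its middle. In the 16 members at least 1.5-fold higher it was 75%, and in the other 86 members, of which 85 have a window, 63.5%. Among genes with a mean of 100 to 250, it was 63.5% in the members and 79.2% in the genes with a lower value in deficient cells. The same direction was seen in windows of 500 bases on each side of the start, with 61.4% in the members and 80.3% in all well-expressed genes. These shares carry no test, and the members had been chosen with results of these libraries known.

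**Figure D2:**
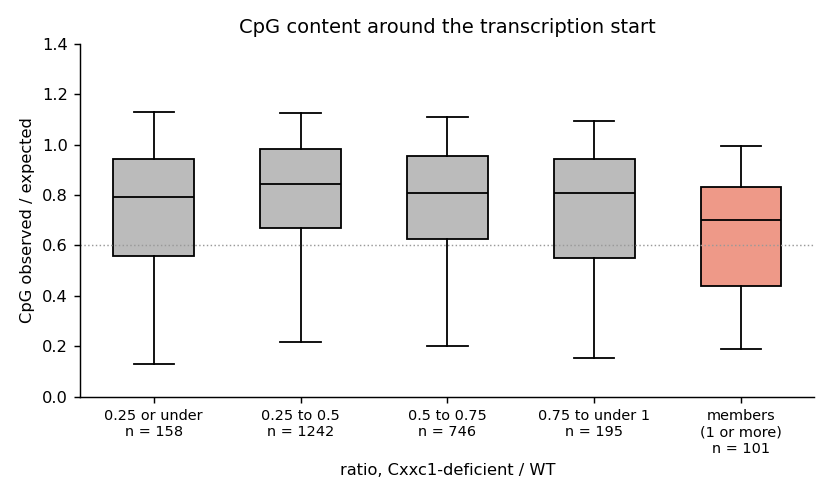
Observed/expected CpG in the window from 250 bases before to 50 after the transcription start (y axis), for well-expressed genes grouped by the ratio of *Cxxc1*-deficient to WT (x axis, with the number of genes). Boxes span the quartiles with the median as a line, whiskers reach the 5th and 95th percentiles and the dotted line marks 0.6; the members have the lowest median, 0.701, and the lowest first quartile, 0.440.

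Among the 24 members with an observed/expected CpG under 0.4 were the integrin alpha chains *Itga4* and *Itgam*, *Lgals9*, *Evi2b*, *Tox*, *Tmc6*, *Tmc8*, *Arhgap15*, *Casp8* and *Airn*. *Arhgap15* and *Fam169b* had no CpG in the window. TATAAA on either strand was present in 14 of the 101 members' windows (13.9%), *Fos*, *Myc*, *Trp53*, *Polr2a* and *B2m* among them. It was present in 6.75% of all well-expressed genes and in 13.1% of all genes of the table that have a window. The AP-1 motif TGANTCA was found in 5.94% of the members, 3.78% of all well-expressed genes and 6.92% of all genes of the table that have a window. The cyclic AMP response motif TGACGTCA was found in 0.99% of the members and 3.42% of all well-expressed genes. The E-box CACGTG was found in 8.91% and 9.76% and the *Sp1* motif GGGCGG in 61.4% and 66.8%. TGACGTCA, CACGTG and GGGCGG hold a CpG, so their shares are not independent of the CpG count. The CArG box, the site of serum response factor, was found in 0.99% and 1.22%. All motifs were searched on both strands, and a match is a description of these letters only.

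Of the 6 members at least 2-fold higher, *Fos* and *Jun* are on an immediate-early and stress list, and *Myc*, *Trib1* and *Phlda1* are known to be induced by growth or receptor signals. *Fos*, the AP-1 subunit that serum and receptor signals switch on within minutes, lies on the plus strand of chromosome 12 (mm9, 86814840 to 86818223) and had 39 in WT and 166 in deficient cells, a ratio of 4.26. *Jun*, its usual partner in AP-1, lies on the minus strand of chromosome 4 (mm9, 94715725 to 94718913) and had 67 and 161, a ratio of 2.40. *Myc*, the bHLH factor that drives growth and division, lies on the plus strand of chromosome 15 (mm9, 61816946 to 61821929) and had 91 and 192, a ratio of 2.11. All 3 were under 100 in WT and over 150 in deficient cells, so they entered the set through the library in which they were high. *Trib1*, a pseudokinase that steers proteins to ubiquitin ligases and is itself an early response gene, had 54 and 152. *Phlda1*, a pleckstrin homology-like protein induced by T-cell receptor signals, had 125 and 344, the largest difference among the 12 members of highest ratio. Subtracting the median of 1122 olfactory receptor genes, which thymocytes do not use (22 in WT and 24 in deficient cells), from each value took the log2 ratio of *Fos* from 2.09 to 3.06 and that of *Phlda1* from 1.46 to 1.64.

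The rest of the immediate-early genes did not move as 1 group. Of the 22 genes of that list, 8 were well expressed, and 3 of these did not have a lower value in deficient cells: *Fos*, *Jun* and *Dusp1*, a phosphatase that switches off MAP kinases and that the rule leaves out by its name, with 127 and 303. The median log2 ratio of the 8 was -1.25, beside -1.08 over all well-expressed genes, of which 4.81% were not lower. *Egr1*, a zinc finger factor induced by the same signals, had 263 in WT and 81 in deficient cells. *Zfp36*, which destabilises cytokine mRNAs, had 1006 and 285, and *Btg2*, an antiproliferative gene, had 531 and 255. Of the other AP-1 subunits, *Fosb* had 32 and 69, *Junb* 31 and 69, *Fosl2* 41 and 35, and *Jund* 66 and 51, all under the limit of 100 on the mean. *Nr4a1*, an orphan nuclear receptor induced by the T-cell receptor, had 39 and 82. *Fos*, *Jun*, *Fosb*, *Junb* and *Nr4a1* thus were higher and *Egr1*, *Zfp36* and *Btg2* lower in deficient cells.

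The other members of highest ratio have no common role. *Coa6*, an assembly factor of cytochrome c oxidase, had 64 in WT and 154 in deficient cells. *Zdhhc9*, a palmitoyltransferase encoded on the X chromosome, had 84 and 159, and *Mospd3*, a protein of endoplasmic reticulum contact sites, had 105 and 193. *Pura*, a single-strand nucleic acid binding protein, had 76 and 126. *Heg1*, a transmembrane protein best known from endothelium, had 148 and 245. *Chdh*, the mitochondrial choline dehydrogenase, had 130 and 214. *Gm7120*, a predicted gene on chromosome 13, had 120 and 201. The ratios of these members ran from 2.41 for *Coa6* down to 1.65 for *Chdh*.

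**Figure D3:**
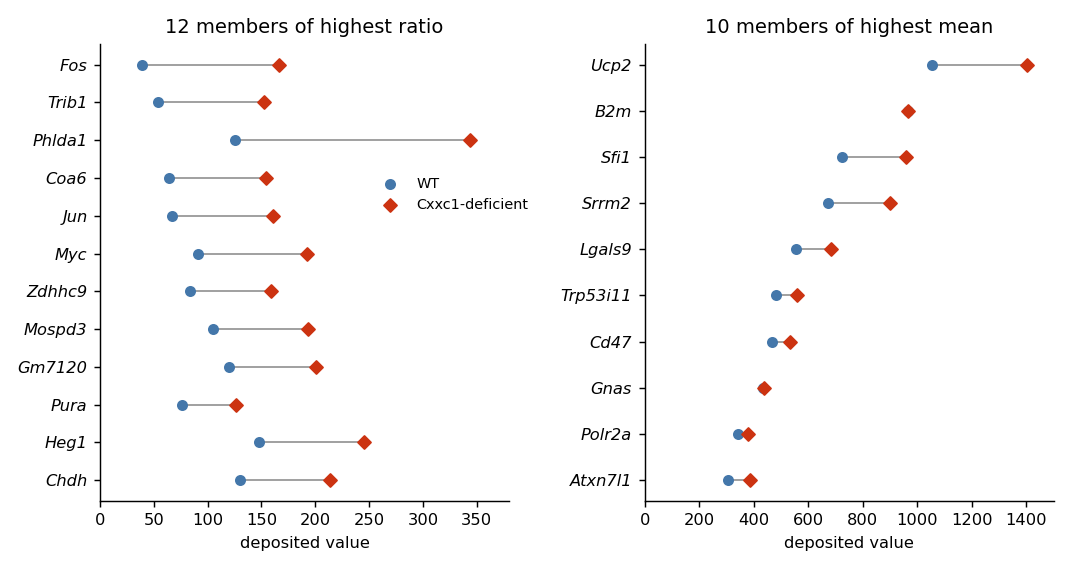
Deposited values in WT (circles) and *Cxxc1*-deficient (diamonds) DP thymocytes, 1 library each, on a linear x axis, for the 12 members of highest ratio (left) and the 10 members of highest mean (right). *Fos* goes from 39 to 166 and *Phlda1* from 125 to 344 on the left; on the right *Ucp2*, *Sfi1* and *Srrm2* stand apart by ratio, while *B2m* and *Gnas* overlap.

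Of the 10 members of highest mean, 3 had a ratio above 1.3. *Ucp2*, a carrier of the inner mitochondrial membrane that is high in lymphocytes, lies on the plus strand of chromosome 7 (mm9, 107641846 to 107650529) and had 1052 in WT and 1403 in deficient cells, a ratio of 1.33. Its relatives *Ucp1* (44 and 31) and *Ucp3* (28 and 21), which mark brown fat and muscle, were near the median of all genes. *Srrm2*, a serine- and arginine-rich scaffold of the spliceosome and of nuclear speckles, lies on the plus strand of chromosome 17 (mm9, 23940154 to 23961706) and had 672 and 898, a ratio of 1.34. *Sfi1*, a centrosomal protein, had 722 and 960, a ratio of 1.33. *Lgals9*, a galectin that binds sugars on T-cell surface proteins, had 555 and 685. *Trp53i11*, named for its induction by p53, had 480 and 558, and *Cd47*, the surface protein that keeps macrophages from eating a cell, had 466 and 533. *B2m*, the light chain of every MHC class I molecule, lies on the plus strand of chromosome 2 (mm9, 121973422 to 121978819) and had 964 and 965. *Gnas*, the stimulatory G protein alpha subunit, had 435 and 438, *Polr2a* 344 and 379, and *Atxn7l1* 305 and 385. For *B2m* and *Gnas* the difference was at most 3 units of values that are rounded to 1, and it carries no direction.

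By role, the 102 members fell into 11 groups that were assigned after their values were seen. The 11 transcription factors had the widest range of ratios, from 1.02 to 4.26, with 5 of them at least 1.5-fold higher. The 16 signalling and cytoskeletal genes had a median ratio of 1.14 with 3 at least 1.5-fold higher, and the 17 surface, secreted and channel genes a median of 1.14 with 1. The 14 chromatin regulators and coregulators had a median of 1.19 with 1, and of the 7 genes of transcription and RNA machinery 0 reached that size. The median of the 11 mitochondrial and metabolic genes was 1.07. The highest median, 1.33, was that of the 5 genes grouped as copies or noncoding RNAs. It is the ratio of *Sfi1*, which, like *Gm7120* in the same group, is annotated as protein coding. The lowest, 1.03, was that of the 6 genes with no assigned role. The 8 genes of ubiquitin and protein turnover (1.19), the 5 of the secretory pathway (1.17) and the 2 of cell death (1.12) lay between.

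**Figure D4:**
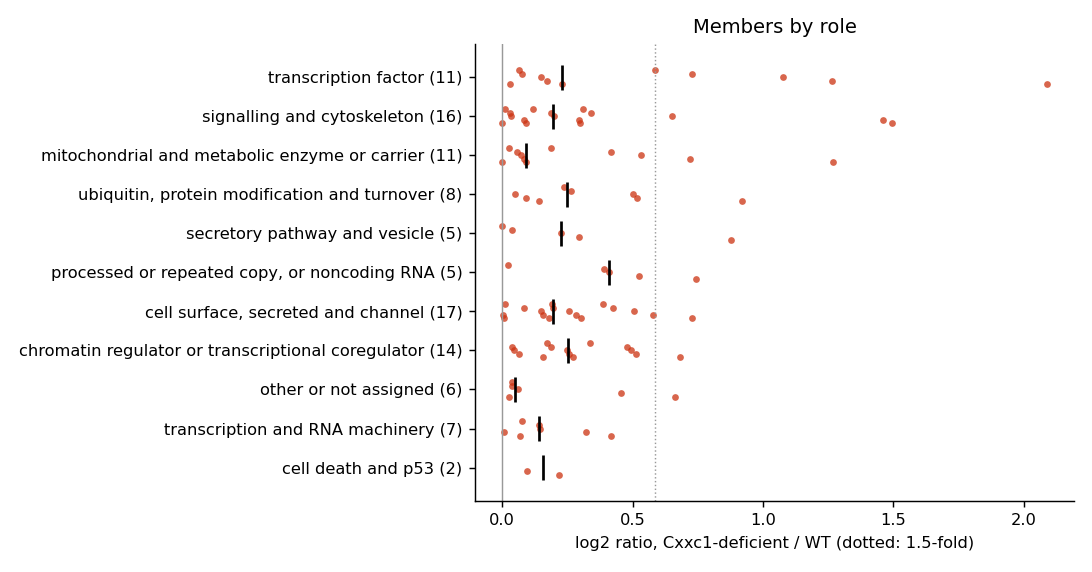
Log2 ratio of deficient over WT values (x axis) for each of the 102 members, grouped by role (y axis, number of members in brackets), with the group's median as a black line, the grey line at equal values and the dotted line at 1.5-fold. The points right of 1.0 are *Fos*, *Trib1*, *Phlda1*, *Coa6*, *Jun* and *Myc*; in most groups the points crowd between 0 and 0.5.

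Beyond *Fos*, *Jun*, *Myc* and *Pura*, the transcription factors of the set were mostly near equality. *Mlxip*, a glucose-sensing bHLH partner of *Mlx*, had 100 in WT and 150 in deficient cells. *Mef2d*, the MADS-box factor that acts downstream of calcium signals in thymocytes, had 310 and 363, and *Irf2*, an interferon regulatory factor, 189 and 199. *Tox*, an HMG-box factor needed for CD4 lineage development, had 287 and 300, and *Plagl2*, a zinc finger factor, 187 and 191. *Trp53*, the tumour suppressor p53, had 149 and 165. Of a list of p53 targets, 4 genes were well expressed and 0 were members, where 4.81% of all well-expressed genes were not lower. Their median log2 ratio was -1.50, beside -1.08 over all. The list does not hold *Trp53i11* (480 and 558), a member named for its induction by p53. *Sp2*, a zinc finger factor that binds GC-rich promoters, had 135 and 152.

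Many members stood beside well-expressed relatives that were lower in deficient cells. Across 22 families and complexes, which were chosen after the values were seen and hold 27 members, 26 other genes were well expressed. All 26 were lower, as the rule makes them unless their names are left out, and their median log2 ratio was -0.92, beside -1.08 over all well-expressed genes, so the relatives were no lower than the typical well-expressed gene. *Mef2d* had 310 in WT and 363 in deficient cells, while its paralogue *Mef2a* had 754 and 262. *Sp2* was 1.13-fold higher, while *Sp1* had 638 and 286, *Sp3* 561 and 310, and *Sp4* 209 and 120. Of the genes around *Myc*, *Max*, its obligate partner, had 316 and 73, and *Mxd4*, a repressor that competes for *Max*, had 155 and 60. *Trib1* had 54 and 152 and *Trib2* 217 and 104. Relatives under the limit on the mean went both ways. Some were higher in deficient cells, such as *Mycn* (20 and 42), *Mycl* (32 and 43), *Mef2c* (39 and 61) and *Trib3* (24 and 39). Others were lower, such as *Mef2b* (37 and 21), *Mxd3* (47 and 11) and *Tox4* (76 and 35).

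Chromatin regulators are set beside relatives in the same way. *Mta3*, a subunit of the NuRD complex, lies on the plus strand of chromosome 17 (mm9, 84105503 to 84223055) and had 104 in WT and 167 in deficient cells, a ratio of 1.61, while *Mta2* had 229 and 107 and *Mta1* 82 and 42. *Arid1a*, the DNA-binding subunit of the BAF remodelling complex, had 318 and 326, beside 379 and 240 for *Arid2* of the related PBAF complex. *Brpf3*, a scaffold of histone acetyltransferases, had 94 and 106, beside 133 and 76 for *Brpf1* and 239 and 90 for *Brd1*. The nuclear receptor coactivators *Ncoa6* (191 and 227) and *Ncoa2* (165 and 184) were members, whereas *Ncoa1* had 132 and 83 and *Ncoa3* 121 and 87. The remaining chromatin genes were *Cxxc5*, *Atxn7l1*, *Zmiz2* (87 and 124), *Gltscr1*, *Hdgfrp3* (141 and 170), *Phc1* (98 and 117), *Mkl2* (112 and 117) and *Mbd5* (128 and 132).

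Of the enzymes and readers closest to CXXC1 itself, most were lower in deficient cells and a few were not. *Kmt2a*, the MLL1 methyltransferase of H3K4, which has a CXXC domain of its own, lies on the minus strand of chromosome 9 (mm9, 44611438 to 44689379) and had 201 in WT and 229 in deficient cells. Of the 12 genes of an H3K4 methyltransferase list that are in the table, 6 were well expressed and *Kmt2a* was the only one of these that was not lower. The list does not hold *Setd1b*, a catalytic subunit of a SETD1 complex that the rule leaves out by name. *Setd1b* had 94 and 125. With it, 2 of 7 were not lower, beside 4.81% of all well-expressed genes. Counts among so few genes carry little. *Kmt2d* had 161 and 152, *Hcfc1* 230 and 201, *Kmt2c* 303 and 175, *Dpy30* 169 and 92, and *Wdr82*, a subunit particular to the SETD1 complexes, 162 and 67. The median log2 ratio was -0.49 over the 6 and -0.19 with *Setd1b*, beside -1.08 over all well-expressed genes. The other genes of the list had a mean under 100. Of these, *Setd1a* (96 and 84), *Ash2l* (97 and 50), *Rbbp5* (94 and 22), *Wdr5* (48 and 28) and *Kmt2b* (84 and 57) were lower, and *Men1* (60 and 66) was not. Among proteins with a CXXC domain, *Cxxc5*, a regulator of Wnt and BMP signals, had 118 and 166, while *Tet1* had 155 and 116, *Tet3* 129 and 84, *Dnmt1* 120 and 76, and *Kdm2a*, a CpG island demethylase, 371 and 212.

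**Figure D5:**
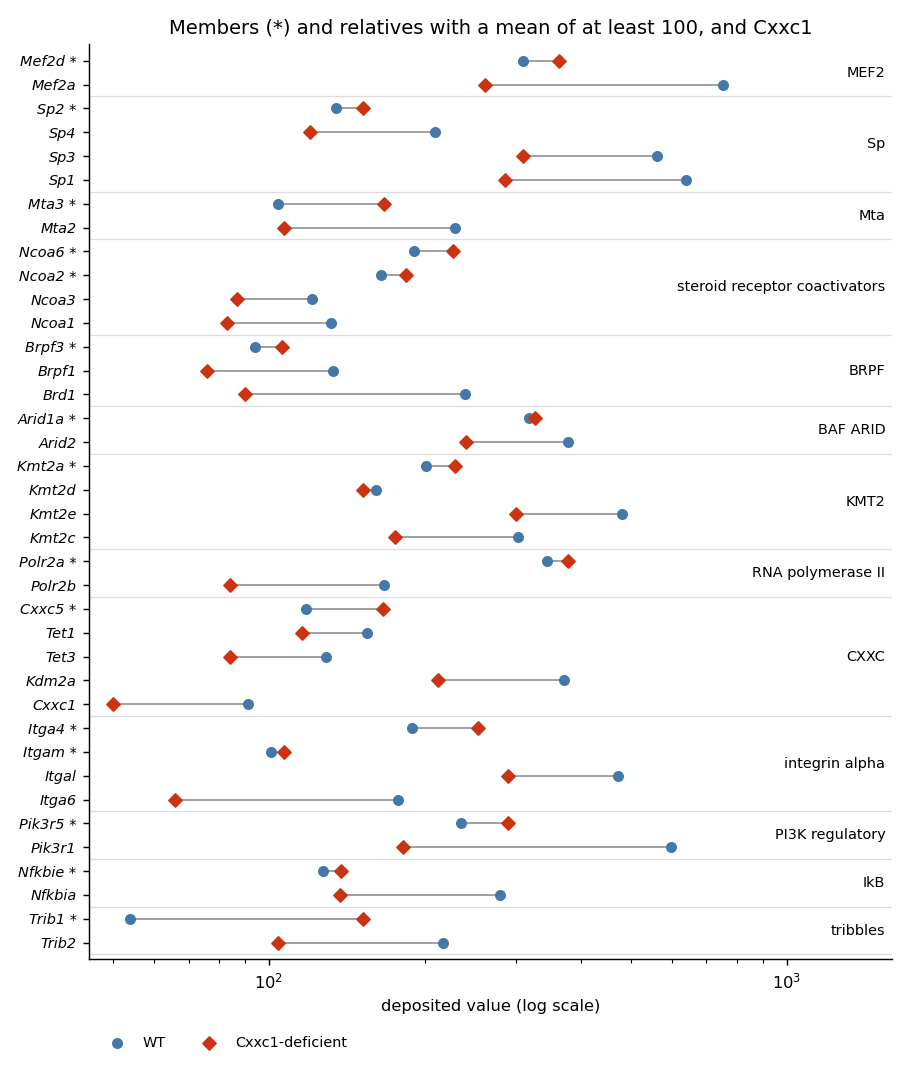
Deposited values in WT (circles) and *Cxxc1*-deficient (diamonds) DP thymocytes, 1 library each, on a log x axis, for members (asterisk) and the well-expressed genes of the same family or complex, with *Cxxc1* (91 and 50) added; the family stands at the right. The diamond lies right of the circle for members and left of it for the others, by the rule; among the relatives plotted, the widest gaps are those of *Pik3r1* (599 and 182), *Mef2a* (754 and 262) and *Itga6* (178 and 66).

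In the transcription machinery, *Polr2a*, the catalytic subunit of RNA polymerase II, lies on the minus strand of chromosome 11 (mm9, 69547499 to 69572139) and had 344 in WT and 379 in deficient cells. The second largest subunit, *Polr2b*, had 167 and 84, and the other 10 subunits in the table had a mean under 100, *Polr2g* with 135 and 27 among them. *Ccnk*, the cyclin of the elongation kinases CDK12 and CDK13, had 106 and 111. *Ubap2l*, an RNA-binding protein of stress granules, had 218 and 241, *Calcoco1*, a nuclear receptor coactivator and autophagy receptor, 169 and 170, *Thumpd3*, a tRNA methyltransferase, 114 and 120, and *Rp9*, a splicing-associated protein, 96 and 120. Apart from *Srrm2* and *Rp9* these genes had ratios of at most 1.11.

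The 17 surface, secreted and channel genes include several that guide thymocytes. *Itga4*, the alpha chain of the integrin VLA-4, had 189 in WT and 254 in deficient cells, whereas *Itgal*, the LFA-1 alpha chain, had 473 and 289, and *Itga6*, of a laminin receptor, 178 and 66. *Nrp1*, a semaphorin and VEGF coreceptor found on thymocytes and regulatory T cells, had 195 and 277. *Il17rb*, the receptor for IL-25, had 87 and 130, and *Kcna3*, the Kv1.3 potassium channel of T cells, 161 and 184. *Tmc6* (149 and 165) and *Tmc8* (106 and 120), whose products form a zinc-regulating complex in lymphocytes, were near each other in ratio. Among the rest were *Prrt1* (181 and 220), *Lrp10* (190 and 212), *Grina* (91 and 119), *Tmem154* (92 and 110), *Evi2b* (219 and 220) and *Angpt1*, an angiopoietin (128 and 129).

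*B2m* kept its value while partners of its protein product did not form 1 pattern. Of 19 other genes of MHC class I, its peptide loading and CD1d in the table, 1 besides *B2m* had a mean of at least 100: *Cd1d1*, which presents lipids to NKT cells, with 183 in WT and 69 in deficient cells. *Tap2*, a subunit of the peptide transporter, had 106 and 66, a mean under 100. The classical heavy chains *H2-K1* (20 and 11) and *H2-D1* (44 and 27) had low values. Only uniquely mapped reads were kept, and the part of sequence shared among class I genes in these values was not tested. *Gbp7*, an interferon-induced GTPase, had 145 and 149.

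Signalling and cytoskeletal members form a mixed group. *Fkbp5*, a cochaperone of the glucocorticoid receptor and a target of it, had 107 in WT and 168 in deficient cells, whereas the receptor gene *Nr3c1* had 294 and 142, and its targets *Tsc22d3* and *Sgk1* had 94 and 46, and 113 and 63. Further targets had a mean under 60: *Per1* had 38 and 48, *Klf9* 34 and 35, *Zbtb16* 29 and 43, and *Nfil3* 29 and 52. *Pik3r5*, the regulatory subunit of PI3K gamma, had 235 and 289, beside 599 and 182 for *Pik3r1*. *Nfkbie*, an inhibitor of NF-kappa-B, had 127 and 138, beside 280 and 137 for *Nfkbia*. Others were *Pitpnm2* (217 and 275), *Fam65a* (231 and 286), *Arhgap27* (123 and 151), *Arhgap15* (201 and 213), *Fmnl1*, a formin of blood cells (218 and 232), *Actr1b*, of the dynactin complex (189 and 215), *Git2* (177 and 181), *Ppp1r16b* (135 and 138), *Tti1* (94 and 108) and the kinase *Mknk1*, with equal values.

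Metabolic members were mitochondrial for the most part. *Fech*, which puts iron into haem, had 101 in WT and 146 in deficient cells, the opposite order to *Urod* (101 and 67), an earlier enzyme of the pathway. *Mocs1*, of molybdenum cofactor synthesis, had 108 and 123, *H6pd*, the endoplasmic reticulum form of glucose 6-phosphate dehydrogenase, 135 and 143, *Sfxn3*, a serine carrier, 127 and 132, and *Gpd1l* 99 and 104. *Fam210a* had 107 and 114, and *Fundc1*, a receptor for mitophagy, 114 and 116. Apart from *Coa6*, *Chdh*, *Fech* and *Ucp2*, the ratios of this group were at most 1.14.

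Protein turnover and the secretory pathway gave 13 members. *Ube4a*, a ubiquitin chain elongation factor, had 127 in WT and 180 in deficient cells, and *Dtx3*, a Deltex family E3 ligase, 86 and 123. *Ubqln2*, which takes proteins to the proteasome, had 130 and 156, and *Mid1*, a microtubule-bound E3 ligase, 123 and 145. *Tpp1*, a lysosomal peptidase, had 182 and 194. *Asph* had 120 and 124, *Ubl7* 98 and 108, *Scamp3* 101 and 124, *Jagn1* 119 and 139, and *Fyco1* 111 and 114. *Casp8*, the initiator caspase of death receptors, had 192 and 205. The genes without an assigned role were *Fam169b* (91 and 144), *Heatr2* (92 and 126), *Cyhr1* (119 and 124), *Ccdc97* (155 and 159) and *Ccdc167* (109 and 111), besides *Gbp7*.

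A few members are copies of other sequences or noncoding, and their values are less certain. *Sfi1* and *Pisd-ps1* lie 0.846 kb apart on chromosome 11, and *Pisd-ps1* (152 in WT and 199 in deficient cells) and *Pisd-ps3* (148 and 213) are copies of the phosphatidylserine decarboxylase gene. *Airn*, the noncoding RNA that is antisense to *Igf2r* and transcribed from the paternal allele, had 204 and 207. It was the only one of 7 well-expressed genes of an imprinted and noncoding list that was not lower. Of all well-expressed genes, 4.81% were not lower. Exons of 30 of the 101 annotated members (29.7%) share at least 50 bases with an exon of another gene, as do 24.6% of all well-expressed genes. Whether reads were counted by strand is not given in the sources used here, so reads of overlapping genes cannot be told apart. Of 12 such partners that are in the table, 8 were lower in deficient cells. With no limit on the mean, 40% of genes were not lower and the rest were, so this count is near the general share. Among the lower partners, *Gt(ROSA)26Sor* beside *Thumpd3* had 323 and 165, and *Orc4* beside *Mbd5* 268 and 155. *Tm6sf1* beside *Hdgfrp3* had 231 and 109, and *Drg1* beside *Sfi1* 141 and 65. *Evi2a*, which shares exon sequence and strand with *Evi2b*, had 31 and 69.

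In gene structure the members were like the other well-expressed genes. The median length of the annotated transcript was 3830 bases in the members and 3931 in all well-expressed genes, the median number of exons was 10 in both, and the median span of the gene was 29.6 kb and 33.6 kb. The genes at least 4-fold lower were shorter, with medians of 2512.5 bases, 7 exons and 15.4 kb. Of the 102 members, 98 are annotated as protein coding. The 16 members at least 1.5-fold higher had a median of 3.5 exons. By position, 13 members (12.9%) lay on chromosome 11, beside 8.78% of all well-expressed genes, 9 (8.91%) on chromosome 17, beside 3.66%, and 3 (2.97%) on chromosome 1, beside 7.2%. *Zdhhc9*, *Ubqln2*, *Mid1* and *Fundc1* lie on the X chromosome (3.96%, beside 4.11%). Neighbouring members within 100 kb were *Tmc6* and *Tmc8*, which are divergent and overlap, *Il17rb* and *Chdh*, which are divergent with 0.127 kb between them, *Pisd-ps1* and *Sfi1*, and *Kmt2a* and *Ube4a*, 41.8 kb apart on the same strand.

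Marker lists of other cell types and stages contributed few members. *Itgam*, the CD11b integrin chain of myeloid cells, had 101 in WT and 107 in deficient cells and was the only well-expressed gene of the 17 macrophage and dendritic cell genes in the table, whose summed value was 616 and 512. The defining myeloid genes were low in both libraries, with 19 and 4 for *Lyz2*, 7 and 0 for *Tyrobp* and 24 and 35 for *Csf1r*. Of the lists for B cells (448 and 460), granulocytes and mast cells (307 and 333), erythroid cells (240 and 266), gamma-delta T, NK and innate lymphoid cells (420 and 411) and thymic stroma (507 and 402), 0 genes were well expressed. The summed value of the 17 DN-stage genes was 829 in WT and 1310 in deficient cells. Of these genes, 4 were well expressed: *Notch1*, *Notch3* and *Il2ra*, which the rule leaves out by name, and *Gata3*, with 153 and 101. Most of the higher sum came from *Notch1* (124 and 326), *Il2ra* (63 and 207) and *Notch3* (56 and 167). *Gata3*, *Erg* (47 and 36), *Lyl1* (41 and 34) and *Bcl11a* (74 and 64) were lower in deficient cells. The remaining genes of the list were higher by smaller amounts, such as *Kit* (35 and 36) and *Hes1* (28 and 52). The part of DN-stage cells in the members' values was not tested. The mature single-positive (0 of 4 well-expressed genes), endoplasmic reticulum and Golgi (0 of 10), translation (0 of 5), lysosome and autophagy (0 of 8), interferon-stimulated (0 of 1) and cholesterol (0 of 1) lists held no member, and with 4.81% of all well-expressed genes not lower, counts of 0 among so few genes carry little. The mitochondrially encoded list had no gene in the table.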

How the data were processed

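Total RNA of DP thymocytes was made into mRNA libraries, 1 from WT and 1 from *Cxxc1*-deficient mice. The authors mapped reads to mm9, kept those that mapped uniquely and summarised them with Partek software. The submitters' processing notes also name CASAVA 1.8.2 and Bowtie 1.0.1. The deposited table gives each gene a score in each library, normalized by the authors and rounded to whole numbers. Its unit, the annotation and the read depth are not given in the sources used here, so no interval can be set on a ratio.

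A gene was a member if its mean reached 100 and it had a *Cxxc1*-deficient value equal to or above WT, without 5 names and 30 name stems. Ratios were taken between deposited values, each raised to at least 1. The members and lists were chosen with earlier results of these data known. Named genes were *Cxxc1*, the 12 members of highest ratio, the 10 of highest mean, members in a marker list or with equal values, and the genes nearest both limits; other genes were named by role after their values were seen. Of the members, 95 were matched to GENCODE vM1 by symbol and 6 through RefSeq names. The 19 marker lists, 22 families and 11 roles were compiled by hand. No test was run with 1 library per genotype. Alternatives were other scalings, subtraction of olfactory receptor background, other limits on level and fold, and other promoter windows. Scripts were tested on simulated data. The tools were numpy 2.4.6, pandas 2.3.3, matplotlib 3.10.9, pysam 0.24.0 and scipy 1.17.1 under Python 3.11.15.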

Additional observations from a re-analysis of the deposited data

How the results depend on the processing

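No paired analysis was possible because WT and *Cxxc1*-deficient cells gave 1 library each. All 102 members still met the rule when both libraries were given an equal median or 75th percentile (each over genes above 0 in both), an equal sum, an equal sum without the 100 genes of highest mean, or an equal median over well-expressed genes, since each scaling raises the *Cxxc1*-deficient values (by 0.04, 0.39, 0.66, 0.56 and 1.00 on the log2 scale). Other genes joined: the first kept the counts within 1.5 times, and the next 4 gave 368, 825, 620 and 1915 members, 14.3%, 28.6%, 22.4% and 56.2% of well-expressed genes not lower, and 67, 219, 147 and 740 members at least 1.5-fold higher. The last scaling centres the well-expressed genes on a ratio near 1, so its share is fixed near the middle by construction. Subtracting the olfactory receptor median left 62 members and a share of 3.88%; of the 102, 95 remained equal or higher and 35 dropped under a mean of 100. A mean of at least 50 gave 674 members, 12.3% and 118 at least 1.5-fold higher, a mean of at least 200 gave 30, 3.92% and 1, and no limit gave 7578, 40% and 2449. With both libraries, or WT, at 100 or more, 81 members remained, with shares of 6.85% and 2.82% and 8 at least 1.5-fold higher in each; 21 members had a WT value under 100. At thresholds of 1.2- and 2-fold, 43 and 6 members were higher. Of the members' promoters, 38.6% had an observed/expected CpG of at least 0.75 and 76.2% of at least 0.4, beside 62.5% and 86.9% of all well-expressed genes. The RefSeq promoter table, chosen after seeing the data as was the 500-base window, covers 75.5% of the members, under the 80% needed, so that check is void. The ratios of the 12 members of highest ratio, also added after seeing the data, stayed above 1 under every scaling and the subtraction. This outcome was fixed in advance and is no check. Each scaling raises the deficient values, and the medians subtracted were 22 in WT and 24 in deficient cells. The depth limits every ratio to an unknown degree, and small differences have no replicate spread to be read against.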

Other observations

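Of the 17 genes that met the limits on level and direction but have excluded names, several share roles with the members. *Dusp1*, an early response phosphatase, had 127 in WT against 303 in deficient DP thymocytes, and *Zfp36l2*, an RNA-binding protein that slows division of thymocyte precursors, had 88 and 190. *Setd1b*, a catalytic subunit of a complex that holds CXXC1, had 94 and 125. Carriers of the Slc family were *Slc25a23* (189 and 243), *Slc43a1* (157 and 201), *Slc16a10* (105 and 139), *Slc29a3* (104 and 123) and *Slc35d1* (192 and 197). *Eif4ebp2*, an inhibitor of cap-dependent translation, had 343 and 427. Adding all 17 would bring the set to 119 genes.

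Just below the limit on the mean, *Cpt1a*, which brings fatty acids into mitochondria, had 63 and 120, *Bid*, a death agonist cleaved by *Casp8*, 60 and 100, *Irf9*, of interferon signalling, 72 and 111, and *Socs3*, an inhibitor of cytokine receptors, 66 and 98. They were picked after their values were seen and carry no test.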
